A study of Mus musculus with 30 samples.

Results

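The genes described here are 36 genes of the contractile apparatus of smooth muscle. They were listed by their known function, and all 36 are present among the 24601 genes counted in total RNA of the *muscularis externa* (*ME*), the muscle coat of the gut, and among the 26179 genes counted in *RiboTag* mRNA. By role, 10 encode actins and proteins that bind the thin filament, 5 encode myosin and its switch, 8 encode intermediate filaments and linkers of dense bodies, 4 tie the filaments to the membrane, 5 carry or handle ions, 2 are transcriptional regulators and 2 act in relaxation through cyclic nucleotides.

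The libraries come from the small bowel *ME* of male mice of 10 to 12 weeks that were naïve or had undergone intestinal manipulation (IM) 3 h, 24 h or 72 h earlier (IM3h, IM24h and IM72h), a surgical model of postoperative ileus in which the bowel is rolled with a cotton swab. Every mouse carried the Rpl22tm1.1Psam allele (B6N.129 Rpl22tm1.1Psam/J), which puts an HA tag on a ribosomal protein in cells with Cre recombinase. All *RiboTag* libraries, and total RNA at IM24h and IM72h, came from crosses with B6 Tg(Sox10-icre/ERT2)388Wdr/J, in which tamoxifen activates a Cre driven by the *Sox10* promoter, active in enteric glia. Total RNA of naïve mice and at IM3h came from crosses with B6.Cg-Tg73.12Mvs/J(Gfap-cre), in which the *Gfap* promoter drives Cre. *RiboTag* mRNA was precipitated with the tagged ribosomes, and total RNA is the lysate before precipitation. The count tables hold 3 naïve and 3 IM3h libraries of total RNA and 4 each at IM24h and IM72h, and in the *RiboTag* fraction 3 naïve libraries and 4 at each time. In total RNA the mouse line cannot be told apart from the change between naïve mice and IM24h or IM72h, whereas naïve with IM3h, and IM24h with IM72h, share a line. The study counts its groups in animals, while the labels do not tie a library to a mouse.

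Smooth muscle shortens when calcium, bound to calmodulin, activates the myosin light chain kinase MYLK, which phosphorylates the regulatory light chain MYL9 so that the heavy chain MYH11 pulls on filaments of the actins ACTA2 and ACTG2. Myosin phosphatase reverses the switch, and calponin, caldesmon and tropomyosins sit along the thin filament. The filaments are anchored in dense bodies by alpha-actinin and desmin. In the *ME* these cells form the circular and longitudinal layers that move the gut content. Transcription of many of these genes is driven by serum response factor (SRF) with its coactivator myocardin (MYOCD), which act at a short element called the CArG box.

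The CArG box was searched as CC, 6 letters A or T, then GG, a pattern that reads alike on both strands. The search covered the 250 bases before the RefSeq start of each gene (GRCm38.p6). It was present for 6 of the 32 genes with a window, namely *Cnn2*, *Myl9*, *Ldb3*, *Vcl*, *Dmd* and *Srf*, or 18.8%, against 1.62% of all 27025 genes. *Actg2*, *Tagln*, *Myh11* and *Myocd* have no entry in the sequence table. Stretches around the boxes are shown for 4 genes that differ in their course below, 5′ to 3′ on the strand of the gene, with the boxes in capitals. They lie at chr17:46556163-46556304, minus strand for *Srf*, chr2:156775243-156775372, plus strand for *Myl9*, chr10:79988484-79988599, plus strand for *Cnn2* and chr14:20929148-20929240, plus strand for *Vcl*.
Srf: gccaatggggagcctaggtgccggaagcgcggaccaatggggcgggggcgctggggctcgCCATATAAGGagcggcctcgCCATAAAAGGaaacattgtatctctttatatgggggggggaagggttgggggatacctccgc
Myl9: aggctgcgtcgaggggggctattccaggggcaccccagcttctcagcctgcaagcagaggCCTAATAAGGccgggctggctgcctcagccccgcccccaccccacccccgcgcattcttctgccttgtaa
Cnn2: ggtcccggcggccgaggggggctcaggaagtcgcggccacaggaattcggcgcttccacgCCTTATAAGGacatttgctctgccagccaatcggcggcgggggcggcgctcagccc
Vcl: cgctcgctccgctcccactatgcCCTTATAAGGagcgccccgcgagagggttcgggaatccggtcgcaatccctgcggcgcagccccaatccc
The window of *Srf* holds 2 boxes, which begin 82 and 62 bases before the start. The single boxes of *Myl9*, *Cnn2* and *Vcl* begin 161, 56 and 227 bases before it. A match is a description of these letters and does not show that SRF binds there. Boxes with other letters or outside the window were not searched, so genes without a match are not shown to lack one.

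Library totals were 6603170 to 12866062 estimated counts in total RNA and 3010306 to 7899493 in *RiboTag* mRNA. AY036118, a transcript inside a ribosomal RNA gene, took 16.1% to 33.5% of total RNA in naïve mice, 24.1% to 25.1% at IM3h, 1.33% to 6.5% at IM24h and 2.34% to 3.69% at IM72h, so that its share was higher in every library of the Gfap-cre line than in any total RNA library of the other. It took 2.68% to 14% of *RiboTag* counts in naïve mice, 2.02% to 10.3% at IM3h, 22.2% to 59.2% at IM24h and 58% to 80.1% at IM72h. Without it the *RiboTag* libraries at IM72h hold 663808 to 1619377 counts, so weakly expressed genes are measured there with few counts. The 8 glial markers, *Sox10* and *S100b* among them, were all higher in *RiboTag* mRNA than in total RNA of naïve mice, with a median log2 ratio of 3.41. At IM24h 5 of 8 were higher. At IM72h 1 of 7 tested, *S100b*, was higher and 1, *Sox10*, was lower, so the markers do not bear out the label of glial mRNA at that time. In a mixed tissue, fewer muscle cells and less contractile mRNA per cell cannot be told apart.

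In naïve mice the contractile genes took 7.89% to 8.64% of all counts of total RNA other than AY036118. Their share was 5.64% to 6.38% at IM3h, 2.04% to 4.34% at IM24h and 6.02% to 8.22% at IM72h. Every library at IM3h and IM24h lay under the naïve ones, and at IM72h 1 library lay within their range and the others under it. In *RiboTag* mRNA the share was 4.45% to 5.8% in naïve mice, 1.53% to 2.81% at IM3h, 1.45% to 2.62% at IM24h and 2.77% to 4.77% at IM72h, and the naïve libraries lay above all those at IM3h and IM24h and overlapped with 1 library at IM72h. These shares are described without a test.

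**Figure D1:**
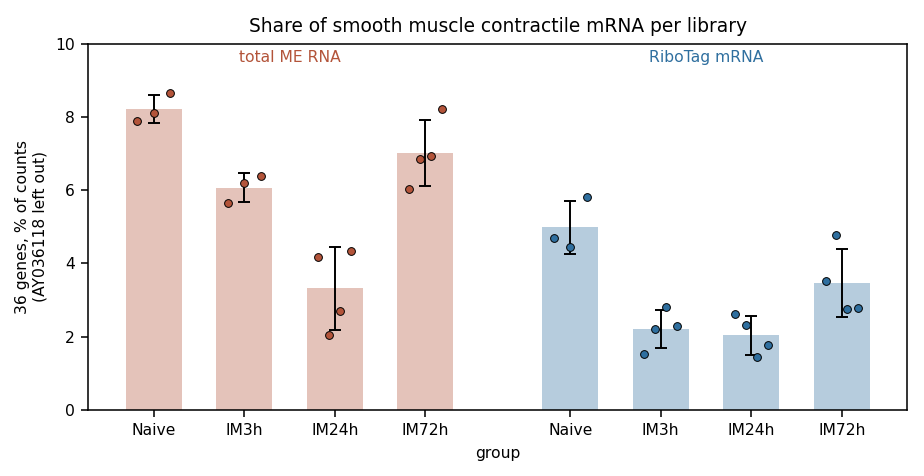
Share of counts, in percent of all counts without AY036118, taken by the 36 contractile genes in each library (points) by group on the horizontal axis, with the mean (bars) and SD (lines) of 3 or 4 libraries. The lowest shares of total RNA are at IM24h (2.04% to 4.34%), and the *RiboTag* libraries at IM3h and IM24h all lie under those of naïve mice (4.45% to 5.8%).

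Levels below are CPM, counts divided by a library size that was scaled by TMM, a method that centres the bulk of genes between libraries. Values of libraries stand in the order of their names, and they are compared within a gene and not between genes. A gene is called where the edgeR quasi-likelihood test gave a Benjamini-Hochberg adjusted p under 0.05 over all genes tested.

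At IM3h *Pln*, *Cnn2*, *Lmod1*, *Ppp1r12b* and *Smtn* fell in total *ME* RNA, while *Myh11*, *Myl9*, *Mylk* and *Des* were not called. All 36 genes passed the filter on low counts, 10 fell and 1 rose, while 13.4% of all 15333 genes tested were called lower and 19.3% higher. The median log2 fold change of the contractile genes was -0.24, beside 0.00 over all genes tested.

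*Pln* encodes phospholamban, the brake of the calcium pump of the sarcoplasmic reticulum. It read 188, 161 and 165 CPM in naïve mice and 52.3, 72.8 and 61.5 at IM3h (log2 fold change -1.42 ± 0.13, edgeR adjusted p = 2.9e-05). *Cnn2*, a calponin found outside muscle too, read 93, 96.4 and 105 CPM before and 35.1, 35 and 46.7 after (log2 fold change -1.29 ± 0.14, edgeR adjusted p = 7.7e-05). In both genes every library at IM3h lay under every naïve library. *Lmod1*, an actin nucleator of smooth muscle, went from 679, 828 and 616 to 322, 285 and 479 CPM (log2 fold change -0.92 ± 0.19, edgeR adjusted p = 0.0046). *Ppp1r12b*, a targeting subunit of myosin phosphatase, fell by 0.78 on the log2 scale (edgeR adjusted p = 0.001), and the actin-associated *Smtn* by 0.75 (edgeR adjusted p = 0.0019). *Itga8*, an integrin subunit, was lower at 1.55 to 1.77 CPM after 3.02 to 5.45 CPM, a low level (log2 fold change -1.21 ± 0.41, edgeR adjusted p = 0.046).

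Of the actins, *Acta2* fell from 9855, 9435 and 10513 to 6848, 8297 and 7027 CPM (log2 fold change -0.38 ± 0.13, edgeR adjusted p = 0.043). *Actg2*, the actin of enteric muscle, lay at 2640.0, 2765 and 2863 CPM in naïve mice and 1866, 2135 and 2346 at IM3h, groups that do not overlap but miss the threshold (log2 fold change -0.34 ± 0.12, edgeR adjusted p = 0.051). The levels of *Myh11*, *Myl9*, *Mylk*, *Des*, *Cnn1* and *Tagln* overlapped between the groups, with log2 fold changes of -0.31 to -0.02 and no call. The riser was *Vcl*, which encodes vinculin of the membrane dense plaques and has a CArG box in its window. It read 113, 129 and 154 CPM in naïve mice and 180.5, 192 and 183 at IM3h (log2 fold change 0.54 ± 0.13, edgeR adjusted p = 0.0097), and the call was lost without naïve library 1 (edgeR adjusted p = 0.058). *Srf* read 5.07, 21.2 and 5.65 CPM at IM3h around naïve values of 12.7, 11.6 and 12.1, and *Myocd* 36.4, 59.3 and 59.7 CPM under 66.4, 89.8 and 73.1 (edgeR adjusted p = 0.063). On library totals alone the median of all genes was -0.26 with 18 falls, and on the reference genes *Actb*, *Hsp90ab1* and *Rplp1* it was -0.41 with 31 falls and 0 rises. Of the 11 calls, 8 were kept with each library left out in turn, those of *Cnn2*, *Lmod1*, *Smtn*, *Ppp1r12b*, *Ldb3*, *Pln*, *Cacnb2* and *Kcnmb1*. In a fit of all 4 groups of total RNA 5 fell and 0 rose.

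Markers of other cells moved at IM3h as well. The summed level of 5 mesothelial markers was 126 to 154 CPM in naïve mice and 15.5 to 61.7 at IM3h, with 4 of 5 called lower. That of 6 fibroblast markers was 1954 to 2068 and 884 to 990.3 CPM, with 4 of 5 tested called lower. That of 4 markers of interstitial cells of Cajal was 366 to 372 and 256 to 268 CPM, with 3 lower, and that of 4 neutrophil markers 3.51 to 7.02 and 20.4 to 30.7 CPM, with 2 of 3 tested higher. Macrophage markers summed to 107 to 114 and 75.1 to 84.9 CPM (1 higher and 2 lower of 5 tested) and endothelial markers to 28.8 to 28.9 and 37.9 to 46.6 CPM (1 of 4 tested higher). Their part in the change of the contractile genes was not tested.

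At IM24h *Tpm2*, *Mylk*, *Hspb6*, *Ldb3* and *Myl9* fell most in total *ME* RNA. Of 36 genes tested, 26 fell and 0 rose (in edgeR, and in DESeq2 28 and 0), while 13.4% of 16328 genes were called lower and 15.6% higher. At an unadjusted p under 0.05, 29 were lower and 0 higher, where 19.2% of all genes were lower and 21.4% higher. The median log2 fold change was -1.32 against 0.02 over all genes tested. With the scaling on library totals alone, which moves the median of all genes to 0.66, 13 fell and 2 rose, and 34 of 36 lay under the median of all genes, as many as with TMM.

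Among actins and thin filament proteins 9 of 10 fell, *Cnn1* being the exception (log2 fold change -0.89 ± 0.43, edgeR adjusted p = 0.15). *Acta2* dropped to 3638, 1387, 2051 and 3954 CPM (log2 fold change -1.85 ± 0.34, edgeR adjusted p = 0.0028). *Actg2* read 876, 137, 481 and 1425 CPM (log2 fold change -1.92 ± 0.57, edgeR adjusted p = 0.028). Both actins stayed under every naïve library, yet spread widely among themselves. The largest fall was that of *Tpm2*, a tropomyosin, from 4888, 5503 and 5189 to 1163, 641, 724 and 877 CPM (log2 fold change -2.61 ± 0.23, edgeR adjusted p = 8.8e-05). *Tagln*, which encodes transgelin, fell by 1.36 on the log2 scale, *Smtn* by 1.58 and *Lmod1* by 1.96 (edgeR adjusted p = 0.012, 0.0047 and 0.00031).

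All 5 genes of myosin and its switch fell. *Mylk* read 17668, 13229 and 18557 CPM in naïve mice and 3279, 1685, 2273 and 4233 at IM24h (log2 fold change -2.52 ± 0.32, edgeR adjusted p = 0.00041). *Myl9*, whose window holds a CArG box, went from 3674, 3695 and 3862 to 947, 310.2, 716 and 1509.9 CPM (log2 fold change -2.1 ± 0.41, edgeR adjusted p = 0.0041), and *Myh11* from 4639, 6019.8 and 4504 to 1771, 780.5, 1333 and 2367 CPM (log2 fold change -1.69 ± 0.33, edgeR adjusted p = 0.0038). The kinase and both chains were thus lowered in each library. Of the linkers, 6 of 8 fell, led by *Ldb3* (from 50.8, 60.9 and 56.7 to 18.9, 3.2, 9.38 and 20.4 CPM, log2 fold change -2.11 ± 0.47, edgeR adjusted p = 0.0074), *Synm* (log2 fold change -2.06 ± 0.28) and desmin, *Des* (from 1696, 1758 and 1786 to 481, 219, 427 and 558 CPM, log2 fold change -2.05 ± 0.28, edgeR adjusted p = 0.00057). The exceptions were *Flna* (edgeR adjusted p = 0.064) and *Actn1*, an alpha-actinin also made outside muscle, whose log2 fold change was 0.38 ± 0.22 (edgeR adjusted p = 0.22). *Hspb6*, a small heat shock protein phosphorylated in relaxation, fell from 629, 616 and 586 to 109.7, 59.4, 106 and 271 CPM (log2 fold change -2.16 ± 0.41, edgeR adjusted p = 0.0035), whereas the kinase *Prkg1* overlapped (log2 fold change -0.2 ± 0.22).

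Of the ion channel and calcium genes, *Pln*, *Cacna1c*, *Cacnb2* and *Kcnma1* fell by 0.73 to 1.53 on the log2 scale. Of the membrane genes, *Dmd* fell by 0.88. The regulators did not pass the test. *Myocd* read 90.8, 88.3, 55.7 and 48 CPM (log2 fold change -0.11 ± 0.24), overlapping with naïve levels, and *Srf* 19.5, 14.9, 7.29 and 16.8 CPM (log2 fold change 0.26 ± 0.32).

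The IM24h libraries differed among themselves. Library 2 was the lowest of the 4 for 23 of the 36 genes and library 4 the highest for 21. The number that fell was 20 to 29 with any library left out, and 18 of the 26 calls were kept each time. Those of *Actg2*, *Tagln*, *Cnn2*, *Ppp1r12b*, *Ppp1r14a*, *Pgm5*, *Dmd* and *Cacna1c* were each lost without at least 1 library. Markers of other cells moved at the same time. The summed level of 4 neutrophil markers was 3.51 to 7.02 CPM in naïve mice and 54.7 to 213 at IM24h, that of 6 macrophage markers 107 to 114 and 319 to 674 CPM, and that of 5 mesothelial markers 126 to 154 and 7.41 to 101 CPM. None of these markers was at 0 in all libraries of either group, and 4 neutrophil and 4 macrophage markers were called higher. Of the mesothelial markers 1 was called lower, and 4 were at an unadjusted p under 0.05 with over 2-fold. Markers of pericytes and vascular muscle, a sum made mostly of *Rgs5*, read 4366 to 4961 and 1726 to 2288 CPM (1 of 3 tested lower) in naïve mice and at IM24h, and those of striated muscle 152 to 195 and 9.01 to 38.1 CPM (1 of 2 tested lower). For endothelium the sums were 28.8 to 28.9 and 44.6 to 61 CPM (2 of 4 tested higher) and for proliferating cells 9.04 to 17.6 and 35.4 to 74.5 CPM (2 of 4 tested higher). For epithelium they were 102 to 279 and 61.9 to 139 CPM (1 of 5 tested lower). The part of these cells in the fall was not tested.

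**Figure D2:**
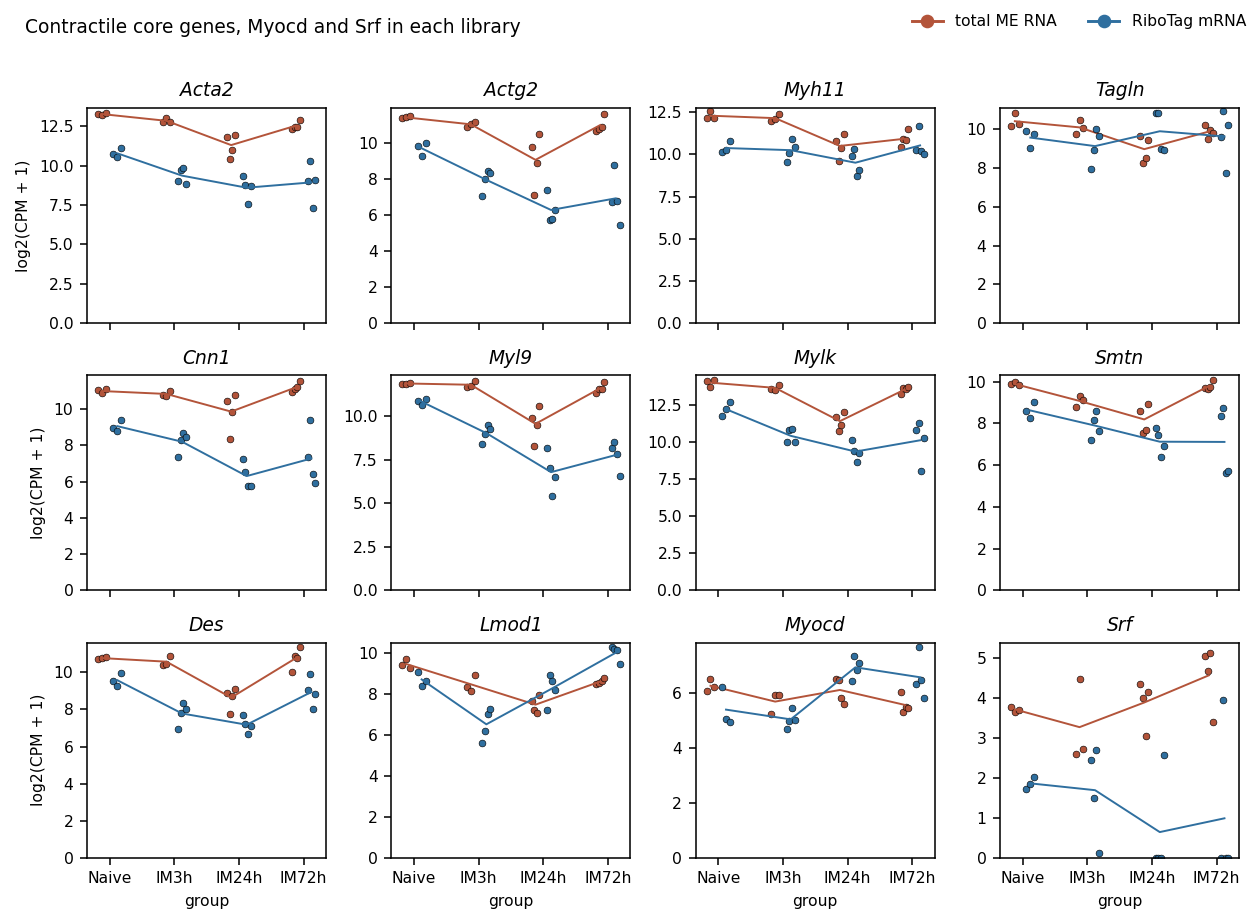
Level of 12 genes in each library, as log2(CPM + 1), by group on the horizontal axis, in total *ME* RNA (red) and *RiboTag* mRNA (blue). Points are libraries and lines join the group means, and the fractions were scaled separately. In total RNA *Mylk* and *Des* dip at IM24h and are higher again at IM72h, *Myh11* stays low, and in *RiboTag* mRNA *Myl9* and *Actg2* lie under naïve mice at each time.

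Between IM24h and IM72h, groups that share a mouse line, a large part of the program rose again in total RNA. Of 36 genes tested, 18 rose and 1 fell, where 18.6% of 16281 genes were called higher and 19.9% lower. The median log2 fold change was 0.79 beside 0.01 for all genes tested. Scaled on the 3 reference genes, with the median of all genes at -0.22, 6 rose. Without IM24h library 3 the number was 12. Markers of several other cells moved too. Summed levels at IM24h and IM72h were 61.9 to 139 and 242 to 487 CPM for epithelium (3 of 5 markers higher). For striated muscle they were 9.01 to 38.1 and 99.95 to 136 CPM (3 of 3 tested higher). Of proliferating cells 4 of 4 markers were higher. Of neutrophils 3 of 4 tested were lower, and of interstitial cells of Cajal 3 of 4. The part of these cells in the rise was not tested.

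*Hspb6* rose most, from 109.7, 59.4, 106 and 271 to 601, 742, 633 and 879 CPM (log2 fold change 2.36 ± 0.39, edgeR adjusted p = 0.00086). *Ppp1r14a*, the inhibitor of myosin phosphatase also called CPI-17, rose from 125, 94.4, 59.6 and 106 to 524, 444, 513 and 313 CPM (log2 fold change 2.19 ± 0.24, edgeR adjusted p = 9.9e-05). *Des* rose to 1052, 1885, 1768 and 2636 CPM (log2 fold change 2.09 ± 0.32, edgeR adjusted p = 0.00057), *Tpm2* to 3323, 3682, 3783 and 4045 CPM (log2 fold change 2.09 ± 0.2, edgeR adjusted p = 4.1e-05) and *Mylk* to 9488, 12824, 12113 and 13057 CPM (log2 fold change 2.02 ± 0.27, edgeR adjusted p = 0.00027). The groups did not overlap in any of these 5 genes. *Myl9*, *Smtn*, *Lmod1*, *Acta2* and *Actg2* also rose, by 1.06 to 1.82 on the log2 scale, of which the call of *Acta2* was lost without IM24h library 3 and that of *Actg2* without any library but IM24h libraries 2 and 4. The gene that fell was *Cacna1c*, the pore of the L-type calcium channel, from 49.6, 45.9, 38.3 and 63.5 to 27.3, 31.3, 32.2 and 38 CPM (log2 fold change -0.65 ± 0.18, edgeR adjusted p = 0.014), a call that is lost without IM72h library 2.

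*Myh11* stayed low. Its levels at IM72h, 1389, 1911, 1839 and 2924 CPM, overlapped with those at IM24h (log2 fold change 0.34 ± 0.32, edgeR adjusted p = 0.44). *Tagln* and *Cnn1* missed the threshold (edgeR adjusted p = 0.054 and 0.054), as did *Myocd* with a log2 fold change of -0.62 ± 0.24 and *Srf* with 0.75 ± 0.38. Of the 26 genes that fell at IM24h, 16 rose between IM24h and IM72h. These comparisons share the IM24h libraries, so that the count is no independent sign of a return.

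Set against naïve mice, 20 of 36 genes were lower at IM72h and 3 were higher. This is to be read beside 28.3% lower and 29.3% higher among all 16592 genes tested. The median log2 fold change was -0.54 against 0.02 for all genes. The split depends on scaling, since on library totals alone, with the median of all genes at 0.62, 12 were higher and 6 lower. In both scalings 28 of the 36 genes lay under the median of all genes. On the 3 reference genes, with the median of all genes at -0.58, 1 was higher and 27 lower. Markers of other cells differed from naïve mice too. Summed levels in naïve mice and at IM72h were 107 to 114 and 364 to 427 CPM for macrophages (6 of 6 markers higher), 9.04 to 17.6 and 207 to 253 for proliferating cells (4 of 4 higher), 1954 to 2068 and 3280.5 to 4018 for fibroblasts (3 of 6 higher), and 366 to 372 and 157 to 182 for interstitial cells of Cajal (4 of 4 lower). Pericytes and vascular muscle stood at 4366 to 4961 and 1317 to 1858 CPM (2 of 4 tested lower), endothelium at 28.8 to 28.9 and 64.7 to 78 CPM (4 of 4 tested higher) and neutrophils at 3.51 to 7.02 and 34.1 to 63.5 CPM (4 of 4 tested higher). Mesothelial markers summed to 126 to 154 and 40.4 to 98.5 CPM (3 of 5 tested lower) and those of striated muscle to 152 to 195 and 99.95 to 136 CPM (2 higher and 1 lower of 4 tested). The sums for enteric glia were 126 to 153 and 176 to 327 CPM (4 higher and 2 lower of 8 tested) and for enteric neurons 573 to 606 and 476 to 568 CPM (2 higher and 3 lower of 8 tested). Epithelial markers summed to 102 to 279 and 242 to 487 CPM (2 of 5 tested higher). At IM24h the sums for fibroblasts and proliferating cells were 1111 to 2859 and 35.4 to 74.5 CPM. Whether these cells have a part in the changes of the contractile genes was not tested.

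All 5 genes of ion channels and calcium handling were lower at IM72h. *Pln* read 49.5, 59.7, 56.5 and 70.9 CPM, after 188, 161 and 165 in naïve mice (log2 fold change -1.57 ± 0.13, edgeR adjusted p = 4.9e-06), *Cacna1c* 27.3, 31.3, 32.2 and 38 after 66, 108 and 86.4 (log2 fold change -1.45 ± 0.17, edgeR adjusted p = 3.9e-05), and its subunit *Cacnb2* and the potassium channel *Kcnma1* fell by 1.08 and 1.18 on the log2 scale. The fall of *Kcnmb1*, 0.48 on that scale, turned to a rise of 0.11 on library totals alone. *Synm* fell to 979, 942, 1136 and 896 CPM from 2301, 2519 and 2669.7 (log2 fold change -1.37 ± 0.12, edgeR adjusted p = 7.4e-06) and *Myh11* was lower by 1.36 ± 0.22 on the log2 scale (edgeR adjusted p = 0.00038). These genes lay under every naïve library except for *Kcnmb1*, which overlapped. *Itga8* was lower at 0.588, 1.43, 1.96 and 1.82 CPM (log2 fold change -1.48 ± 0.41, edgeR adjusted p = 0.0093), and *Myocd* at 64, 39.1, 43.5 and 42.8 CPM (log2 fold change -0.72 ± 0.18, edgeR adjusted p = 0.0051).

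The 3 genes that rose were *Ppp1r14a*, *Flna* and *Srf*. *Ppp1r14a* went up to 524, 444, 513 and 313 CPM from 182, 135 and 177 (log2 fold change 1.41 ± 0.19, edgeR adjusted p = 9.5e-05), and was higher in each scaling tried. *Flna*, filamin A, rose to 4766, 3911, 4337 and 4251 CPM from 2459, 3545 and 2840.1 (log2 fold change 0.52 ± 0.15, edgeR adjusted p = 0.012), but its log2 fold change was -0.08 when scaled on the 3 reference genes. *Srf* read 32.4, 24.6, 34 and 9.62 CPM, of which 3 libraries lay above and 1 under the naïve levels (log2 fold change 1.01 ± 0.36, edgeR adjusted p = 0.03), a call lost without any 1 naïve library or IM72h library 1 or 3. The log2 fold changes of *Des*, *Cnn1*, *Cnn2*, *Csrp1*, *Smtn*, *Myl9* and *Actg2* were -0.41 to 0.19, none of them called. *Acta2*, *Lmod1*, *Mylk* and *Tagln* were lower by 0.5 to 0.9 on the log2 scale, with *Tagln* overlapping and both *Tagln* and *Mylk* positive on library totals, as *Tpm2* and *Ldb3* were (0.06, 0.08, 0.09 and 0.00857). The rises numbered 1 without naïve library 1, when that of *Ppp1r14a* was kept.

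**Figure D3:**
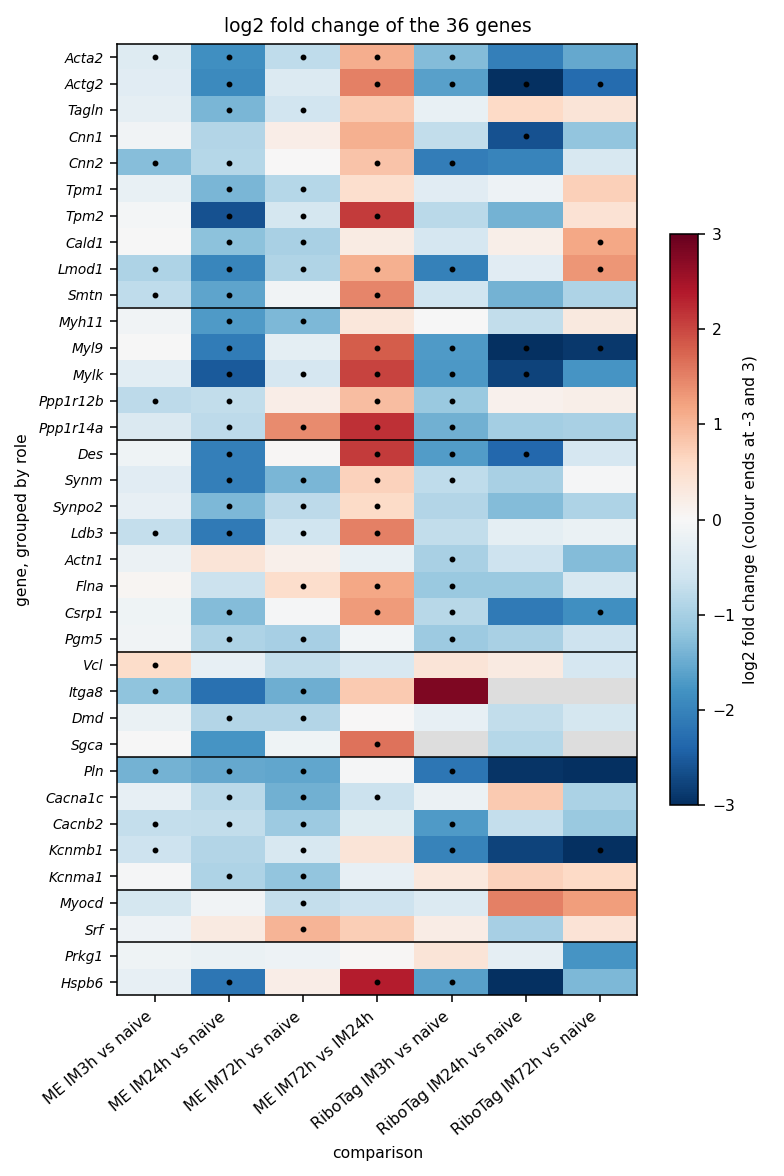
Log2 fold change (colour, ends at -3 and 3) of the 36 genes, in rows grouped by role, in 7 comparisons within a fraction. Dots mark an edgeR adjusted p under 0.05 and grey marks genes not tested. The column of total RNA at IM24h holds 26 falls, and that from IM24h to IM72h 18 rises.

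Contractile mRNA was counted in the *RiboTag* fraction as well, and *Myl9*, *Actg2*, *Mylk* and *Des* were lower there at IM3h and IM24h. A difference between the fractions in response was tested at IM3h alone. At IM3h, 18 of 35 tested genes fell and 0 rose, with 20 and 0 in DESeq2 and 21 and 0 at an unadjusted p under 0.05 in edgeR. Of all 16053 genes, 4.44% were called lower and 8.86% higher, and 11.2% and 15.6% had an unadjusted p under 0.05. The median log2 fold change was -0.84 for the contractile genes and -0.04 for all genes tested. *Sgca* did not pass the filter on low counts. Markers of some other cells fell in the same libraries. The summed level of mesothelial markers was 111 to 288 CPM in naïve mice and 10.8 to 73.2 at IM3h (4 of 5 called lower), that of fibroblast markers 644 to 757 and 216 to 305 CPM (3 of 6) and that of markers of interstitial cells of Cajal 162 to 226 and 63.4 to 149 CPM (1 of 4). The sum of striated muscle markers was 47.2 to 70.3 and 15.7 to 41.2 CPM (0 of 3 tested called). Markers of enteric neurons did not fall, at 516 to 1118 and 722 to 1768 CPM (1 of 8 tested higher and 0 lower). Of the 8 glial markers 2 were called higher and 2 lower. No marker of macrophages, epithelium or endothelium was called (0). The part of these cells in the fall of the contractile genes was not tested.

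The count of falls depends on the libraries and the scaling. It was 11 on the 3 reference genes, with the median of all genes at -0.45. Without naïve library 3 it was 8, and in a fit of all 4 *RiboTag* groups, which share 1 estimate of the spread, it was 0. *Pln* fell from 39.1, 22 and 30.8 to 5.03, 11.2, 8.14 and 1.96 CPM (log2 fold change -2.16 ± 0.51, edgeR adjusted p = 0.017). *Cnn2* fell from 59.3, 68.8 and 58.7 to 7.89, 11.4, 17.5 and 20.1 CPM (log2 fold change -2.08 ± 0.34, edgeR adjusted p = 0.0022), *Lmod1* from 541, 334 and 397 to 47.6, 71, 129 and 152 CPM (log2 fold change -2.03 ± 0.37, edgeR adjusted p = 0.0042), and *Kcnmb1*, the beta subunit of the large potassium channel, from 15.9, 37.9 and 35.5 to 6.73, 9.46, 7.45 and 4.95 CPM (log2 fold change -2.0 ± 0.41, edgeR adjusted p = 0.0076). The groups did not overlap for any of the 4, but the call of *Pln* was lost without naïve library 1 or 3 and that of *Kcnmb1* without naïve library 3.

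The switch of myosin fell at IM3h in the pulldown. *Mylk* read 3448, 4737 and 6478 CPM in naïve mice and 1039, 1756, 1882 and 1003 at IM3h (log2 fold change -1.72 ± 0.33, edgeR adjusted p = 0.0051), and *Myl9* 1847, 1572 and 2057 and 339, 496, 717 and 602 CPM (log2 fold change -1.7 ± 0.28, edgeR adjusted p = 0.0023). *Acta2*, *Actg2* and *Des* fell by 1.31, 1.64 and 1.69 on the log2 scale (edgeR adjusted p = 0.015, 0.0075 and 0.005). *Myh11* overlapped, at 1114, 1203 and 1740.2 CPM before and 742, 1067, 1955 and 1409.7 after (edgeR adjusted p = 1), as did *Tagln* and *Smtn*. *Cnn1* lay lower in each library at IM3h but was not called (log2 fold change -0.74 ± 0.31, edgeR adjusted p = 0.14). *Myocd* read 24.7, 30.9, 43.2 and 31.4 CPM and overlapped with naïve mice, and *Srf* had 18, 23 and 26 counts in naïve libraries and 58, 19, 47 and 1 at IM3h. Of the genes lower in the pulldown at IM3h, 7 were lower in total RNA too and 11 were not called there.

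At IM24h 5 of 35 genes were called lower in *RiboTag* mRNA and 0 higher (DESeq2 10 and 0), out of 0.131% lower and 0.366% higher among 15304 genes tested. At an unadjusted p under 0.05, 17 were lower and 1, *Myocd*, was higher, while 6.03% of all genes were lower and 7.14% higher at that p. The median log2 fold change was -0.98 beside -0.11 for all genes. The genes called were *Myl9*, *Actg2*, *Mylk*, *Cnn1* and *Des*.

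*Myl9* read 287, 130.4, 41.6 and 90.7 CPM at IM24h (log2 fold change -3.69 ± 0.57, edgeR adjusted p = 0.021) and *Actg2* 167, 51.9, 53.2 and 75.6 CPM after 905, 621 and 1044 in naïve mice (log2 fold change -3.26 ± 0.47, edgeR adjusted p = 0.021). *Mylk* read 1119.7, 669.7, 400.1 and 603 CPM (log2 fold change -2.77 ± 0.46), *Cnn1* 150.2, 90.4, 52.3 and 52.3 after 499.9, 446 and 676 (log2 fold change -2.61 ± 0.43), and *Des* 208, 149, 101 and 135 after 732, 615 and 987 (log2 fold change -2.36 ± 0.37). All 5 lay under every naïve library. Marker sums of several other cells did not overlap between naïve mice and IM24h, at 846 to 1517 and 358 to 532 CPM (0 of 2 tested called) for pericytes and vascular muscle, 162 to 226 and 47.9 to 154 CPM (0 of 4 tested called) for interstitial cells of Cajal and 111 to 288 and 0 to 110.1 CPM (0 of 5 tested called) for mesothelium. Striated muscle markers read 47.2 to 70.3 and 0 to 30.7 CPM (0 of 2 tested called), with *Mylpf* and *Tnnt3* at 0 in all libraries at IM24h. The sums lay above the naïve range for macrophages, at 62 to 104 and 135 to 192 CPM (0 of 5 tested called), neutrophils, at 2.49 to 6.21 and 8.99 to 48.7 CPM (0 of 2 tested called), and proliferating cells, at 13.8 to 22.2 and 34.1 to 166 CPM (0 of 3 tested called), where *Cdk1* was at 0 at IM24h. Their part in the fall of the 5 genes was not tested. The calls of these genes are fragile, since none was left (0) without IM24h library 2 or 4 or any 1 naïve library, and 9 were called without IM24h library 1. All were also lost with the scaling on library totals (0 genes lower) and on the 3 reference genes (0), where the median of all genes was -0.96 and -1.51. *Acta2*, at 661, 431, 191 and 411 CPM after 1696, 1465 and 2202, missed the threshold (log2 fold change -2.04 ± 0.44, edgeR adjusted p = 0.058).

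Other genes of the list did not share this course. *Tagln* read 1796, 1856, 509 and 483 CPM at IM24h around naïve values of 953, 525 and 872, libraries 1 and 2 being well above libraries 3 and 4. *Lmod1*, *Cald1*, *Tpm1*, *Ppp1r12b* and *Myh11* overlapped with naïve mice, with log2 fold changes of -0.73 to 0.18. *Myocd* read 85.8, 163, 114 and 136 CPM, all above the naïve 72.6, 32.1 and 29.6, without passing the adjusted test (log2 fold change 1.5 ± 0.44, edgeR adjusted p = 0.15). *Srf* was at 0 counts in 3 of the 4 libraries, and *Itga8* in all 4.

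At IM72h *Myl9*, *Actg2*, *Csrp1* and *Kcnmb1* were lower than in naïve mice in *RiboTag* mRNA, and *Lmod1* and *Cald1* were higher. Of 34 genes tested, 4 fell and 2 rose, with 15.1% lower and 1.05% higher among 13572 genes. The falls numbered 10 on library totals, 17 on the 3 reference genes, 2 in DESeq2 and 1 with no filter. The rises numbered 0, 0, 0 and 0 in this order, and 0 in a fit of all 4 *RiboTag* groups. The median of the contractile genes, -0.58, was close to the -0.4 of all genes tested, which TMM did not bring to 0 here.

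*Myl9* stayed low at 286, 362, 227 and 93.7 CPM (log2 fold change -2.9 ± 0.44, edgeR adjusted p = 0.0082), and *Actg2* read 105, 443, 109 and 41.9 CPM, under all naïve libraries (log2 fold change -2.31 ± 0.68, edgeR adjusted p = 0.043). *Csrp1*, a LIM protein of the dense bodies, fell from 1004, 909.9 and 923 to 303, 473, 173 and 114 CPM (log2 fold change -1.83 ± 0.47, edgeR adjusted p = 0.028). *Kcnmb1* had 125, 336 and 300 counts in the naïve libraries and 0, 1, 0 and 1 at IM72h. The ratio of the pooled rates was 0.0094, with an exact 95% interval of 0.00114 to 0.0341 that covers counting error only (edgeR adjusted p = 0.037). *Myl9* and *Actg2* were the 2 genes called lower at all 3 times, against the same naïve libraries.

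The genes that rose at IM72h both bind actin filaments. *Lmod1* read 1226, 1151, 1139.5 and 694 CPM after 541, 334 and 397 in naïve mice (log2 fold change 1.33 ± 0.37, edgeR adjusted p = 0.035). *Cald1*, which encodes caldesmon in muscle and other cells, read 6607, 4784, 6885 and 4590.1 after 2846, 2172 and 2777 (log2 fold change 1.17 ± 0.27, edgeR adjusted p = 0.018). Groups did not overlap in either. Both directions turn with the scaling, however, to -0.43 and -0.64 on library totals, which hold the AY036118 counts, and to -0.29 and -0.48 on the 3 reference genes. The median of all genes is then -2.13 and -2.07, and both genes lie above it. Neither was called without naïve library 2 or 3 (0 genes).

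The 4 libraries at IM72h were unlike one another. *Myh11* read 1206, 3283, 1179 and 1022 CPM, *Acta2* 515, 1276, 159 and 547, *Cnn1* 161, 667, 85.6 and 60.4 and *Mylk* 1756, 2520.3, 268 and 1255. Library 2 was the highest for 25 of the 35 genes seen. Without it 10 genes were called lower in place of 4, and without any 1 naïve library 1 was. *Des*, at 521, 963, 256 and 453 CPM, and *Smtn*, at 329, 421, 49 and 51.1, overlapped with naïve mice. *Myocd* read 79.9, 204, 87.5 and 54.8 CPM (log2 fold change 1.25 ± 0.73, edgeR adjusted p = 0.41). *Sgca* had 0, 0, 0 and 183 counts and did not pass the filter. Glial markers summed to 1646 to 1984 CPM in naïve mice, 1398 to 2894 at IM3h, 810.0 to 990.2 at IM24h and 184 to 1462 at IM72h, where *Sox2* was at 0 in all libraries. Between naïve mice and IM72h the mesothelial sum was 111 to 288 and 0 to 53.7 CPM (2 of 5 tested lower), with *Upk3b* at 0 in all libraries at IM72h. That of pericytes and vascular muscle was 846 to 1517 and 116 to 528 CPM (1 of 1 tested lower), with *Notch3*, *Higd1b* and *Ndufa4l2* at 0, and that of endothelium 19.1 to 33.9 and 0 to 77.9 CPM (2 of 4 tested lower), with *Kdr* at 0. Enteric neurons stood at 516 to 1118 and 155 to 484 CPM (1 of 8 tested lower), interstitial cells of Cajal at 162 to 226 and 4.76 to 156 CPM (0 of 4 tested called) and proliferating cells at 13.8 to 22.2 and 106 to 288 CPM (1 of 2 tested higher), *Cdk1* being at 0. The part of these cells in the course of the contractile genes was not tested.

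Whether the response at IM3h differed between the fractions was tested as an interaction over 17606 genes, of which 0.704% were called for a lower and 0.949% for a higher value in *RiboTag* mRNA. Of the 36 contractile genes 1 was called, *Myl9*. Its log2 fold change was -1.7 in *RiboTag* mRNA and -0.02 in total RNA, with a difference of -1.6 ± 0.33 (SE, edgeR adjusted p = 0.026). The number called was 0 on the 3 reference genes, 2 on library totals and 6 in DESeq2. The call was lost without any 1 library of total RNA or without naïve *RiboTag* library 3. *Hspb6* and *Des* had the next smallest p, with differences of -1.32 ± 0.32 and -1.47 ± 0.39 (edgeR adjusted p = 0.054 and 0.073). For the other genes a difference between the fractions was not shown, and the lines of mice differ between them.

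The last comparisons set *RiboTag* mRNA against total RNA of the same stage, on levels scaled over both fractions together. In naïve mice the pulldown held less of the program than the tissue. 25 of 36 genes were lower and 0 higher (DESeq2 26 and 0), with 27 and 0 at an unadjusted p under 0.05. Among all 14741 genes 12.7% were lower and 13.4% higher, and at the unadjusted p 19.1% and 20.2%. The median log2 ratio was -1.12 beside -0.01 for all genes. On library totals the median of all genes was 0.73, and 9 contractile genes were then lower and 4 higher, *Cald1*, *Myl9* and *Ppp1r12b* turning to ratios of 0.11, 0.05 and 0.00493. On the 3 reference genes 15 were lower.

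The actin *Acta2* read 2302, 1956 and 2935 CPM in naïve *RiboTag* libraries and 10308, 9789 and 11156 in total RNA (log2 ratio -2.12 ± 0.21, edgeR adjusted p = 0.00035). *Pln* read 53.1, 29.4 and 41 and 197, 167 and 175 CPM (log2 ratio -2.13 ± 0.23), and *Ldb3* 16.5, 3.62 and 20.8 and 53.1, 63.2 and 60.1 CPM (log2 ratio -2.11 ± 0.5). The fractions did not overlap in these 3 genes. *Srf*, *Tpm1*, *Cnn1*, *Myh11*, *Mylk* and *Actg2* were lower in the pulldown by 1.33 to 1.83 on the log2 scale, *Smtn*, *Des* and *Myl9* by 0.68 to 0.88. Of the 25 calls, 18 were kept with each library left out in turn. Those of *Ldb3*, *Srf*, *Des* and *Myl9* were not among them, and *Srf* had only 18, 23 and 26 counts in the naïve *RiboTag* libraries. *Tagln*, *Lmod1*, *Myocd*, *Flna*, *Cnn2*, *Dmd*, *Cacnb2* and *Kcnma1* were not called, with log2 ratios of -0.47 to 0.36. The naïve groups here come from different mouse lines, which cannot be told apart from the fraction.

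At IM24h, 10 of 34 genes were lower in the pulldown and 2 higher, with 6.06% and 6.09% among 14626 genes, and a median log2 ratio of -0.91 beside -0.19. On library totals 4 were lower and on the 3 reference genes 2. Without library 1 or 4 of total RNA 3 were lower. *Pln* read 9.94, 0, 0 and 7.54 CPM against 43, 32.8, 48.4 and 94.9 (log2 ratio -3.54 ± 1.04, edgeR adjusted p = 0.045). *Cnn1* read 179.9, 107, 60.7 and 62.6 against 1291, 299, 849 and 1650.0 (log2 ratio -3.31 ± 0.55, edgeR adjusted p = 0.004), and *Hspb6*, *Acta2* and *Actn1* were lower by 2.15 to 2.77 on the log2 scale. These genes did not overlap between the fractions. *Kcnma1*, the pore of the large potassium channel, was higher in the pulldown, at 143, 144, 134 and 149 against 53.3, 38.9, 46.4 and 46.5 CPM (log2 ratio 1.62 ± 0.27, edgeR adjusted p = 0.0044). *Myocd* was higher too, at 103, 193, 133 and 162 against 83.7, 81.8, 51.1 and 44.7 CPM (log2 ratio 1.18 ± 0.34, edgeR adjusted p = 0.04), but its call, like that of *Pln*, was lost without any 1 library of total RNA or *RiboTag* library 2 or 4. On library totals and on the 3 reference genes no gene was called higher (0), with medians of all genes of -0.9 and -1.08.

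At IM72h, 10 of 35 genes were lower in the pulldown and 3 higher, where 25.4% and 4.17% of 14294 genes were. On library totals 21 were lower and on the 3 reference genes 19, with medians of all genes of -2.36 and -1.75. The median log2 ratio was -0.99 beside -0.64 for all genes. *Myl9* read 264, 316, 232 and 89.4 CPM against 1605, 1972, 1918 and 2685 (log2 ratio -3.18 ± 0.4, edgeR adjusted p = 0.002), *Actg2* 97, 387, 111 and 39.98 against 1044, 1151, 1214 and 2152 (log2 ratio -3.13 ± 0.69), and *Hspb6* and *Cnn1* had log2 ratios of -2.97 and -2.82. For *Kcnmb1*, with 2 counts in the pulldown, the ratio of pooled rates was 0.00475 (exact 95% interval 0.000575 to 0.0172). *Lmod1* was higher in the pulldown, at 1132, 1007, 1166 and 663 against 223, 235, 257 and 297 CPM (log2 ratio 1.97 ± 0.25, edgeR adjusted p = 0.002). *Cald1* and *Myocd* were also higher, with log2 ratios of 1.64 ± 0.22 and 1.68 ± 0.5 that became -0.15 and -0.01 on library totals. That of *Lmod1* became 0.21 on library totals and 0.85 on the 3 reference genes, and in both scalings none of the 3 genes was called higher (0). The call of *Myocd* was lost without any 1 library other than *RiboTag* library 4, and without *RiboTag* library 2 17 genes were called lower.

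**Figure D4:**
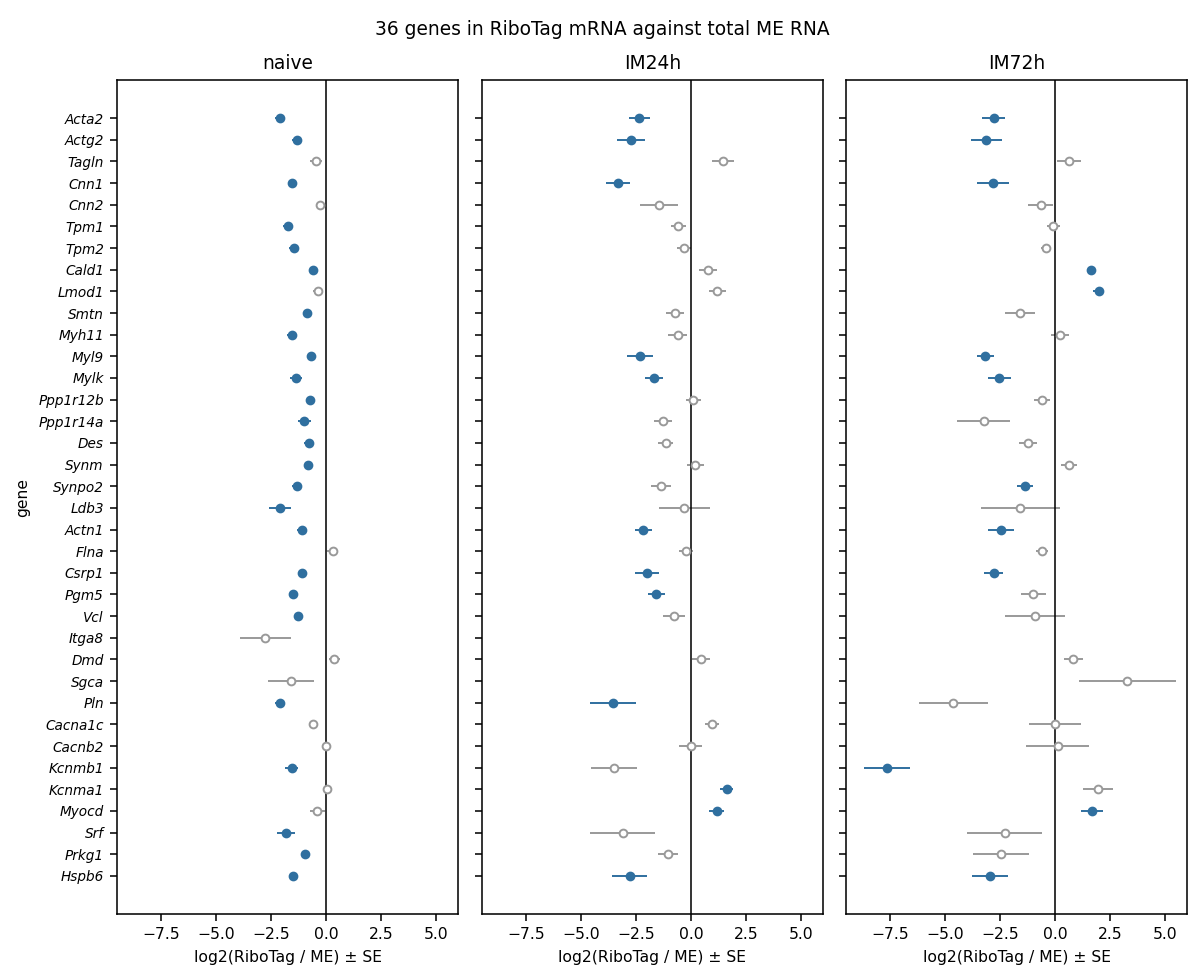
Log2 ratio of *RiboTag* mRNA to total *ME* RNA for each of the 36 genes (points, with the SE as lines) in naïve mice, at IM24h and at IM72h. Filled points have an edgeR adjusted p under 0.05 and genes without a point were not tested. All 25 filled points of naïve mice lie left of 0, while *Lmod1*, *Cald1* and *Myocd* lie right of it at IM72h. The point of *Kcnmb1* at IM72h is a fitted value from libraries with 0 or 1 counts.

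The study used another rule, a p under 0.05 with a change of over 2-fold. It does not say whether that p was adjusted, and it was taken here as unadjusted. By that rule the contractile genes in total RNA numbered 3 lower, *Cnn2*, *Itga8* and *Pln*, and 0 higher (7.14% and 11.3% of all genes) at IM3h. There were 19 lower and 0 higher (11.3% and 12.1% of all genes) at IM24h, and 8 lower and 2 higher, *Ppp1r14a* and *Srf* (15.6% and 17.2% of all genes) at IM72h. From IM24h to IM72h they were 0 lower and 15 higher (12.5% and 12.7% of all genes). In *RiboTag* mRNA the same rule gave 15 lower and 0 higher (8.86% and 11.8% of all genes) at IM3h. It gave 15 lower and 1 higher, *Myocd* (5.85% and 6.62% of all genes) at IM24h, and 6 lower and 2 higher, *Cald1* and *Lmod1* (19.4% and 3.1% of all genes) at IM72h. For *RiboTag* against total RNA it gave 19 lower and 0 higher (11.5% and 14.2% of all genes) in naïve mice. The numbers were 15 lower and 4 higher, *Tagln*, *Lmod1*, *Kcnma1* and *Myocd* (13.6% and 11.5% of all genes) at IM24h, and 14 lower and 4 higher, *Cald1*, *Lmod1*, *Kcnma1* and *Myocd* (29.1% and 6.79% of all genes) at IM72h. For the interaction at IM3h they were 7 lower and 1 higher, *Itga8* (5.17% and 5.98% of all genes). At IM72h the contractile genes lower in total RNA are thus fewer by this rule than by the adjusted p.

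Of 51 further genes of the pathway, among them receptors, calmodulins and cofactors of SRF, 16 fell and 7 rose in total RNA at IM3h. These numbers were 22 and 5 at IM24h, then 29 and 7 at IM72h, all of them tested. Over all genes the shares called lower and higher were 13.4% and 19.3% at IM3h. They were 13.4% and 15.6% at IM24h, then 28.3% and 29.3% at IM72h. *Chrm2*, a muscarinic receptor of the muscle, fell by 1.44, 1.64 and 3.09 on the log2 scale at these times. *Ccn1*, a matrix protein whose gene SRF can drive, rose by 3.65, 4.33 and 2.94, while *Srf* itself was called at IM72h alone. In *RiboTag* mRNA 9 fell and 4 rose of 50 tested at IM3h (all genes 4.44% and 8.86%), with *Ccn1* up by 5.48 and *Pdlim3*, a Z-disc protein, lower at -2.12. At IM24h 0 were called lower in edgeR and 0 higher, where 11 were lower and 3 higher at an unadjusted p under 0.05 of 49 tested (all genes 6.03% and 7.14%). At IM72h 3 of 49 fell, *Fhl1*, *Fhl2* and *Pdlim3*, where 15.1% of all genes did.

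The genes lie on 15 chromosomes, for instance *Myh11* at chr16:14194535-14291372, minus strand, *Acta2* at chr19:34241090-34255590, minus strand and *Mylk* at chr16:34745210-35002420, plus strand (GRCm38). For 13 of them, *Tagln*, *Mylk*, *Des*, *Vcl* and *Pln* among them, exons share bases with another annotated gene, mostly on the other strand. How the counting treated strand, and reads that fit several actins, is not given in the sources used here, so these genes cannot be fully told apart from such neighbours.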

How the data were processed

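Polyadenylated RNA was sequenced from its 3′ ends. Per the study's methods and the labels, the authors trimmed the reads (cutadapt), aligned them with STAR to mm10 and quantified them in Partek Flow, and deposited estimated counts for each gene or transcript that are not always whole. Libraries are rows whose names match no sample label, so the group was taken from the table's own operation column, and library numbers here follow the order of names. The labels list 4 naïve *RiboTag* samples and the tables hold 3, which served for all 3 times. Transcript counts were summed to genes for *RiboTag* libraries and for comparisons of the fractions, and total RNA alone was taken from the gene table.

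Counts were rounded and tested with edgeR 4.0.16 (R 4.3.3, TMM, filterByExpr, two-sided quasi-likelihood test, Benjamini-Hochberg adjustment over all genes tested, threshold 0.05) in 11 comparisons, each fitted on its own groups. Log2 fold changes are given with their SE. The test was tried first on simulated data with the same spread for all genes and groups. This does not show how it performs where libraries spread more widely. DESeq2 1.42.0, other scalings, no filter, a fit of all 4 groups of a fraction, AY036118 left out, the study's rule taken as an unadjusted p under 0.05 with over 2-fold, and each library left out were alternatives. The genes and lists were chosen with earlier results of these data known. Named were 10 core genes, *Myocd* and *Srf* in the main comparisons, and in each comparison up to 5 rises and 5 falls with the largest change among called genes whose groups did not overlap; further genes were chosen after their values were seen. Coordinates are from the GRCm38 annotation, promoters from RefSeq.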

Additional observations from a re-analysis of the deposited data

Results flagged for a closer look

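For the summed level and each of the 36 genes, in groups of 4 libraries the highest or lowest library was compared with its nearest neighbour by Dixon's test, which chance alone would pass in about 1 in 20 groups. It passed in 15 of 185 groups tested. That rate does not hold where all other libraries are at 0, since any value then passes. This was so for *Ldb3*, *Pln*, *Srf* and *Sgca*, so the 2 rates cannot be set against each other. In *RiboTag* mRNA at IM72h, library 2 stood apart as the highest for *Actg2* (443 CPM), *Cnn1* (667 CPM), *Myh11* (3283 CPM), *Dmd* (407 CPM), *Pln* (6.6 CPM) and *Srf* (14.5 CPM), the other libraries being at 0 for *Pln* and *Srf*. Library 1 stood apart for *Ldb3* (34.7 CPM, the others at 0), library 3 for *Cacnb2* (83.7 CPM) and *Prkg1* (30.8 CPM), library 4 for *Sgca* (113 CPM, the others at 0), and library 4 as the lowest for *Lmod1* (694 CPM). In *RiboTag* mRNA at IM24h, library 4 was the one with *Srf* above 0 (4.97 CPM) and library 1 the one with *Sgca* (2.26 CPM). In total RNA, library 4 stood apart for *Actg2* at IM72h (3189 CPM) and for *Itga8* at IM24h (3.1 CPM).

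The response of *Myl9* at IM3h passed the test of a difference between the fractions, with a log2 difference of -1.6 (edgeR adjusted p = 0.026), lower in *RiboTag* mRNA. The call was lost without any 1 library of total RNA or without naïve *RiboTag* library 3, and on the 3 reference genes (0 genes).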

How the results depend on the processing

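No paired analysis was possible because the library names in the tables do not carry the replicate numbers of the labels. In naïve mice and at IM3h the fractions also come from different mouse lines, so they hold no pairs from the same mouse. Over the 159 calls of contractile genes and their alternatives, 1258 of 1604 values kept direction and threshold, 331 kept direction alone and 15 turned. The cause was not tested. Low depth limits what *RiboTag* libraries show of weakly expressed genes at IM72h.

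On library totals alone, the numbers of genes higher and lower were 0 and 18 for total RNA at IM3h, then 2 and 13 at IM24h, then 12 and 6 at IM72h, 0 and 0 for *RiboTag* mRNA at IM24h and 0 and 10 at IM72h, and 4 and 9, 0 and 4 and 0 and 21 for *RiboTag* against total RNA in naïve mice, at IM24h and at IM72h, with 2 interaction calls. On the 3 reference genes they were 0 and 31, 0 and 21, 1 and 27 and, from IM24h to IM72h, 6 and 1 in total RNA, 0 and 11, 0 and 0 and 0 and 17 in *RiboTag* mRNA, and 0 and 15, 0 and 2 and 0 and 19 between fractions, with 0 interaction calls. With all 4 groups of a fraction in 1 fit, 0 and 5 were called in total RNA at IM3h, 2 were lower from IM24h to IM72h, 0 were lower in *RiboTag* mRNA at IM3h and 0 higher at IM72h.

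By the rule of an unadjusted p under 0.05 with over 2-fold, 0 and 3 were called in total RNA at IM3h, 8 lower at IM72h, 0 lower from IM24h to IM72h, 1 and 15 in *RiboTag* mRNA at IM24h, 4 higher in *RiboTag* against total RNA at IM24h, and 8 for the interaction. DESeq2 called 10 lower in *RiboTag* mRNA at IM24h, 0 and 2 at IM72h, 4 higher against total RNA at IM24h and 6 for the interaction. With no filter, 9 were lower in *RiboTag* mRNA at IM24h, 0 and 1 called at IM72h and 1 higher against total RNA at IM24h, and with AY036118 left out 1 was higher at IM72h.

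With each library left out in turn, total RNA gave 0 to 1 higher and 8 to 12 lower at IM3h, 0 higher and 20 to 29 lower at IM24h, 1 to 3 and 17 to 23 at IM72h, and 12 to 21 and 0 to 2 from IM24h to IM72h. *RiboTag* mRNA gave 8 to 19 lower at IM3h, 0 to 9 lower at IM24h, and 0 to 2 higher and 1 to 10 lower at IM72h. Between fractions 19 to 27 were lower in naïve mice, 1 to 4 higher and 3 to 12 lower at IM24h, and 2 to 3 and 8 to 17 at IM72h, with 0 to 3 interaction calls.

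The log2 fold changes that turned on library totals were those of *Tagln* (0.0627), *Tpm2* (0.0925), *Mylk* (0.0798), *Ldb3* (0.00857) and *Kcnmb1* (0.11) in total RNA at IM72h, of *Cald1* (-0.64) and *Lmod1* (-0.43) in *RiboTag* mRNA at IM72h, of *Cald1* (0.11), *Myl9* (0.0503) and *Ppp1r12b* (0.00493) between naïve fractions, and of *Cald1* (-0.15) and *Myocd* (-0.00538) between fractions at IM72h. On the 3 reference genes *Flna* turned in total RNA at IM72h (-0.0789), and *Cald1* (-0.48) and *Lmod1* (-0.29) in *RiboTag* mRNA at IM72h.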
